A study of Mus musculus with 192 samples.

Results

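Mouse bone-marrow-derived dendritic cells that received LPS and zymosan together were compared with cells that received LPS alone and with cells that received zymosan alone. The labels name these groups LPS_Zymosan, LPS and Zymosan, and the 9 samples of this comparison are all the libraries so named, in a series of 64 groups of 3 libraries. Each group has 3 libraries, and 3 untreated libraries (Ctrl) serve as the baseline where the sum of both single-ligand effects is considered. All groups share the same cells: marrow of female C57BL/6J mice aged 6 to 8 weeks, grown with GM-CSF at 15 ng/mL and harvested after 6 hours of stimulation. The labels call the zymosan preparation Zymosan depleted, and the doses of both ligands are not given in the sources used here. Nothing in the labels says whether the 3 libraries of a group came from separate mice or cultures. The p-values thus rest on a spread between libraries that may be technical. That spread was estimated for each gene over all 64 groups, not from the groups compared alone. The wider series crosses 7 ligands, each with every other, and 5 other ligands (labelled PAM, HMW, SeV, cGAMP and CpGB) enter here in 1 comparison only. The questions asked were which genes in the pair lay above or below both single ligands, and, where the singles differed from each other, which ligand the pair resembled.

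LPS, a component of the Gram-negative outer membrane, is recognised by TLR4. That receptor signals through MyD88 from the cell surface, which drives NF-kB and inflammatory cytokines, and through TRIF from endosomes, which drives type I interferon and its target genes. Zymosan is a particle made from yeast cell wall and rich in beta-glucan, which the C-type lectin receptor Dectin-1 (gene Clec7a) recognises, signalling through Syk and the adaptor Card9. In dendritic cells and macrophages both routes reach NF-kB. Of the arms named here the one through TRIF belongs to TLR4, while phagocytosis and an oxidative response are known for the particle.

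Expression was read as unique molecular identifiers (UMIs), 1 for each captured transcript, in bulk libraries. Library totals were 133379 to 229979 UMIs with LPS, 98931 to 198625 with zymosan, 186656 to 253990 with the pair and 61823 to 89530 in Ctrl. Levels are given as CPM, the UMI counts scaled to the same nominal total over the tested genes in each library, with these totals adjusted by trimmed mean of M-values (TMM). The scaling factors were 0.916 to 0.971 in the pair, 1.02 to 1.06 with LPS, 1.14 to 1.17 with zymosan and 1.26 to 1.27 in Ctrl. Of 23481 genes in the table, 4720 passed the filter on low counts, and these held 95.7% of all UMIs. Replicate 2 of the pair stood apart from replicates 1 and 3: the chi-square per degree of freedom was 1.61 and 1.58 in its comparisons with them, against 1.26 between those and 1.11 to 1.44 among the libraries of the other groups. The test used 1 estimate of spread per gene for all groups, so the wider spread of the pair was not estimated separately. Calls that depend on replicate 2 of the pair are marked beside the genes concerned. Marker levels are per total of all UMIs, with the same scaling. The 10 dendritic cell markers summed to 2840 to 3371 CPM in the pair, 2905 to 3097 with LPS, 2807 to 2922 with zymosan and 2380 to 2794 in Ctrl, most of it H2-Ab1 and Cd74. Itgax, which encodes CD11c, was at 205 ± 40.4 CPM in the pair, 267 ± 36.2 with LPS, 505 ± 27.0 with zymosan and 387 ± 34.0 in Ctrl (SD, n = 3), and was called lower in the pair than with zymosan. Batf3 was at 17.4 CPM in the pair, 11.9 with LPS, 27.5 with zymosan and 70.3 in Ctrl. Irf4 was at 14.4 CPM in the pair, 4.96 with LPS, 21.4 with zymosan and 24.5 in Ctrl. Cd209a had no count, and Flt3 and Zbtb46 had at most 6 counts in any group. Summed macrophage markers were 7920 to 9196 CPM in the pair, 7944 to 8171 with LPS, 9405 to 9586 with zymosan and 11114 to 12615 in Ctrl, and their part in the results was not tested. In bulk libraries fewer cells of a type and less RNA per cell cannot be told apart. Summed neutrophil markers were 813 to 860 CPM in the pair, 923 to 1194 with LPS, 814 to 890 with zymosan and 688 to 895 in Ctrl. The pair was thus below every LPS library, and the part of these markers in the results was not tested. Summed mast cell or basophil markers reached at most 21.3 CPM and B cell markers at most 34.6. All 9 T and NK cell markers and all 7 erythroid markers in the table were at 0 in these 12 libraries.

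A gene was called different when its adjusted p from edgeR's quasi-likelihood test was under 0.05 (Benjamini-Hochberg, over all 4720 genes) and its log2 fold change was at least 1 in size. Adding zymosan to LPS raised 97 genes (2.06% of those tested) and lowered 32 (0.678%) relative to LPS alone. At the same adjusted p without the fold threshold, 181 genes (3.83%) were higher and 70 (1.48%) lower than with LPS. Adding LPS to zymosan raised 658 (13.9%) and lowered 388 (8.22%) relative to zymosan alone. The single ligands themselves differed in 1069 genes (22.6%), 635 higher with LPS (13.5%) and 434 higher with zymosan (9.19%). Scaling by library size alone, without TMM, moved the median log2 difference of all genes by -0.12 against LPS and by -0.28 against zymosan. It changed the split of calls to 72 higher and 49 lower against LPS, to 513 and 715 against zymosan, and to 527 and 598 between the singles, so these splits are relative to the scaling. In the plot of the pair against each single ligand the cloud of genes is narrow along the axis for LPS and wide along the axis for zymosan.

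**Figure D1:**
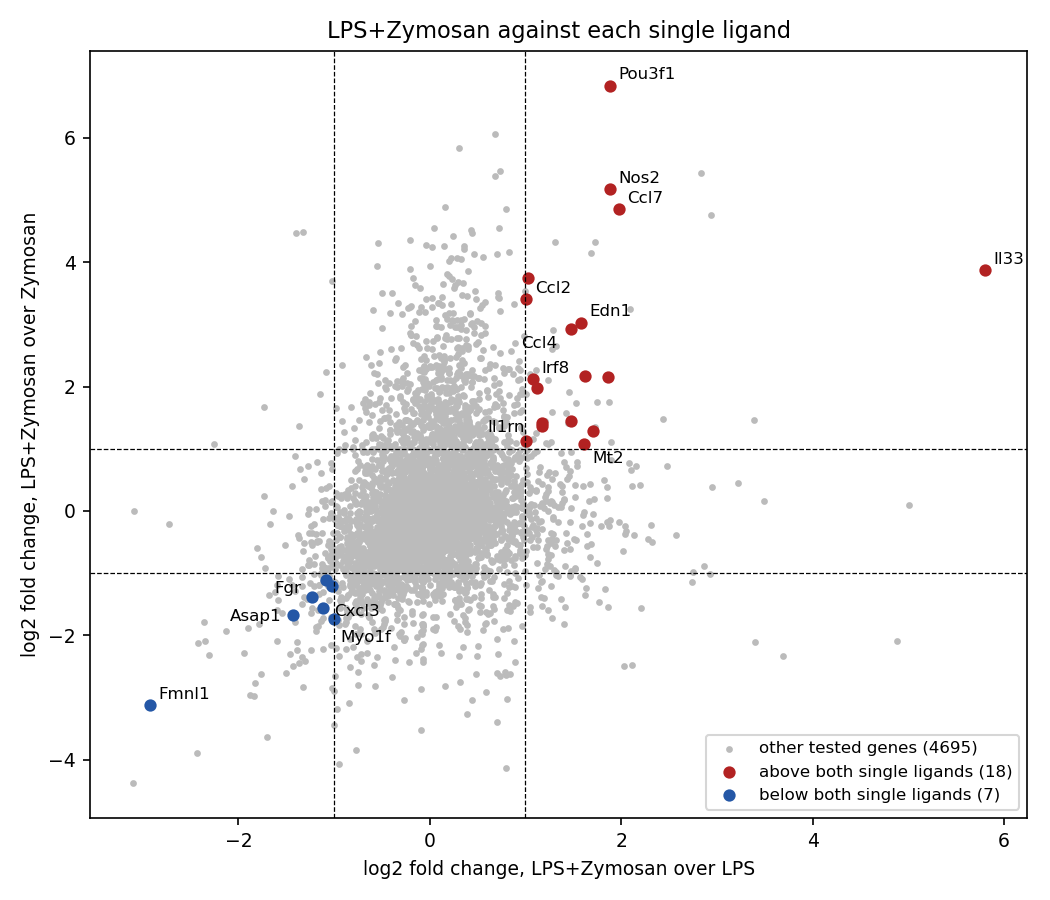
Log2 fold change of the pair over LPS (x axis) and over Zymosan (y axis) for all 4720 tested genes, each a point. Red points mark the 18 genes called above both single ligands and blue points the 7 called below both, and dashed lines mark a log2 fold change of 1 and -1. The spread of points along the y axis is wider than along the x axis.

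For each of the 1069 genes that differed between the singles, the pair was tested against the midpoint of both singles on the log2 scale. A gene was called nearer to LPS or nearer to zymosan when that difference had an adjusted p under 0.05. The pair lay nearer to LPS for 426 genes (9.03% of those tested) and nearer to zymosan for 26 (0.551%), and 617 were called neither. Among the 635 genes higher with LPS, 385 were nearer to LPS, 2 nearer to zymosan (Fyb and Marco) and 248 neither. Among the 434 genes higher with zymosan, 41 were nearer to LPS, 24 nearer to zymosan and 369 neither. With TMM scaling, genes higher with LPS thus made up most of the 426, and most genes higher with zymosan were placed on neither side. A gene called neither is not shown to lie at the midpoint. No gene changed sides in any of 16 other settings, although down to 204 of the 426 and 5 of the 26 kept their call, both lowest when every library was thinned to the smallest total. Scaling by library size alone kept 328 and 16, with 401 and 20 called in all. Over all tested genes, midpoint differences called with a log2 size of at least 1 were 335 higher and 80 lower. By library size alone they were 229 and 182, so this split is relative to the scaling.

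**Figure D2:**
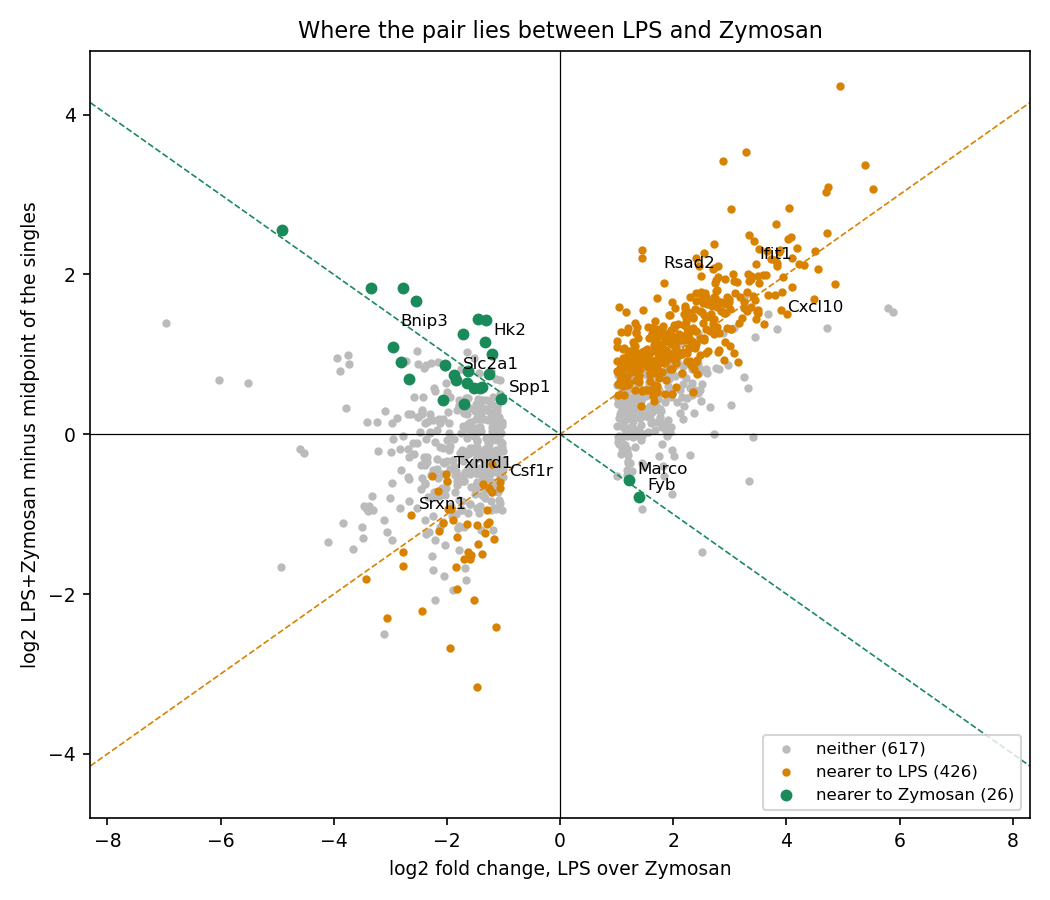
For the 1069 genes that differed between the single ligands, the log2 fold change of LPS over Zymosan (x axis) and of the pair over the midpoint of both singles (y axis). The orange dashed line is where a pair equal to LPS would lie and the green dashed line where a pair equal to Zymosan would lie. The 426 genes nearer to LPS (orange) are mostly on the right, and 24 of the 26 genes nearer to Zymosan (green) are on the left.

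The genes that were higher with LPS and nearer to LPS in the pair included every tested gene of the interferon list. All 15 tested genes of that list rose in the pair against zymosan (13.9% of all tested genes did), with a median log2 fold change of 3.46 (-0.07 over all tested genes). All 15 were higher with LPS and nearer to LPS in the pair (385 of 635 among all genes higher with LPS). Against LPS, none of the 15 was called by edgeR's quasi-likelihood test or by DESeq2, the median was 0.23 (0.02 over all tested genes), and 4 of 15 were higher at an unadjusted p under 0.05 and none lower. Summed markers of plasmacytoid dendritic cells moved with the list, at 833 to 1096 CPM in the pair, 764 to 1180 with LPS and 121 to 145 with zymosan. Bst2, which interferon is known to induce, and Tcf4 made up nearly all of that sum, and Siglech, Klk1 and Cox6a2 had no count in the pair. Ifit1 encodes an interferon-induced protein that binds viral RNA lacking a proper cap, and Rsad2 encodes viperin, an antiviral enzyme of the endoplasmic reticulum. Their promoters are shown because they carry the motif through which interferon-activated factors are known to act. RefSeq gives for Ifit1 chr19:34640639-34640938 on the plus strand and for Rsad2 chr12:26456403-26456702 on the minus strand (GRCm38.p6), each from 250 bases before to 50 bases after the transcription start. Capitals mark matches to the interferon-stimulated response element (GAAA, any 2 bases, GAAA) on either strand, 2 in Ifit1 and 1 in Rsad2.
Ifit1: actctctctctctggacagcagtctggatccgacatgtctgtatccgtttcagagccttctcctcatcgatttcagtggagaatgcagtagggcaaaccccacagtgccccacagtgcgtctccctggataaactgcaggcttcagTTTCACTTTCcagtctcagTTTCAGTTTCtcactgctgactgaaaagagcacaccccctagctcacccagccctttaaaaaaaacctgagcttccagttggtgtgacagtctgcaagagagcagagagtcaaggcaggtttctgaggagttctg
Rsad2: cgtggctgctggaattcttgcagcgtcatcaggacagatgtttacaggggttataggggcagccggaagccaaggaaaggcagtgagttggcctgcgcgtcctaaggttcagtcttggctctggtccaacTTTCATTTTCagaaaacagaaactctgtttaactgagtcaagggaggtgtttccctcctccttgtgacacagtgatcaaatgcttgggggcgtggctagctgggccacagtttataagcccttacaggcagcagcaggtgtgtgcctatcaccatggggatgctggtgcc
Of all 27025 genes with a promoter in the RefSeq table, 3.5% hold a match, and of the 3807 tested genes with a promoter 4.4% do. Among the 385 genes higher with LPS and nearer to it in the pair, 300 had a promoter and 54 of these held a match (18.0%). Only 11 of the 15 interferon genes had a promoter in the RefSeq table (73.3%), too few for a share over the list. Of these 11, 5 held a match while 6 did not.

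Ifit1 stood at 3528, 3935 and 3991 CPM in the LPS libraries, at 349.7, 569.5 and 209.9 in the zymosan libraries and at 4683, 4518 and 4891 in the pair. The pair and LPS libraries were all far above zymosan, and the pair libraries lay above the LPS libraries by less than the called fold. The log2 fold change of the pair was 3.68 ± 0.18 (SE), adjusted p = 5.65e-53, against zymosan, and 0.30 against LPS (95% confidence interval 0.04 to 0.56, adjusted p = 0.214). Rsad2 read 7593, 8635 and 9141 CPM with LPS, 874, 1465 and 695 with zymosan and 11326, 10914 and 10932 with the pair, again with no overlap, and its log2 fold change against LPS was 0.39 (0.10 to 0.67, adjusted p = 0.112). Cxcl10, a chemokine that draws activated T cells, read 6774, 7493 and 7647 CPM with LPS, 497, 781 and 331 with zymosan and 6097, 7464 and 6099 with the pair. Here the pair and LPS libraries overlapped. Ifnb1 itself, which encodes interferon beta, was near the detection limit, with at most 32.2 ± 11.2 CPM (mean and SD, n = 3, in the pair), and was not called in either comparison.

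Genes of MHC class I presentation and of maturation and costimulation were in part called higher than with zymosan, and those of MHC class II were not called. All 12 tested genes of MHC class I presentation were higher in the pair than with zymosan, 9 of them called (13.9% of all tested genes were called higher there). The 8 that differed between the singles were all higher with LPS, and 8 of 8 were nearer to LPS (385 of 635 among all genes higher with LPS). Tap1, a subunit of the peptide transporter that loads class I molecules, read 655, 587 and 671 CPM with LPS, 92.0, 141 and 88.6 with zymosan and 724, 723 and 728 with the pair. Cd40, the receptor through which T cells license dendritic cells, read 1489, 1591 and 1535 CPM with LPS, 129, 134 and 103 with zymosan and 1345, 1576 and 1370.1 with the pair. For both genes the zymosan libraries lay below every LPS and pair library, with log2 fold changes of the pair over zymosan of 2.76 ± 0.22 (SE), adjusted p = 6.81e-31, for Tap1 and 3.58 ± 0.24 (SE), adjusted p = 1.32e-40, for Cd40. Of the 12 tested maturation genes 8 rose against zymosan and none fell (13.9% and 8.22% over all tested genes). Against LPS only Icosl, the ligand of the T cell costimulator ICOS, was called, at a log2 change of -2.73 ± 0.85 (SE), adjusted p = 0.00353. DESeq2 did not call Icosl lower, and its adjusted p was 0.163 after thinning. The edgeR test called none of the 6 tested MHC class II genes in either comparison, nor did DESeq2. Below the fold threshold, 5 of the 6 were higher than with zymosan at an adjusted p under 0.05 (all 6 at an unadjusted one). Without the fold threshold 17.9% of all tested genes were higher there at an adjusted p under 0.05.

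Several cytokine and chemokine genes that were higher with LPS than with zymosan were not called between the pair and LPS. Il6, which encodes the acute-phase cytokine interleukin 6, read 1369.7, 1086 and 1342 CPM with LPS, 138, 166 and 159 with zymosan and 1408, 1362 and 1185 with the pair, so that the pair overlapped LPS and stood apart from zymosan. Its log2 fold change was 3.07 ± 0.22 (SE), adjusted p = 8.48e-35, against zymosan and 0.06 (95% confidence interval -0.22 to 0.35) against LPS. Il1b, the interleukin 1 beta precursor, read 3432, 3636 and 3477 CPM with LPS, 893, 928 and 858 with zymosan and 3729, 2567 and 3081 with the pair, where replicate 1 was above every LPS library and replicates 2 and 3 were below. Ccl5, a chemokine for T cells and monocytes, read 27252, 25211 and 28623 CPM with LPS, 2356, 2822 and 2267 with zymosan and 26266, 27534 and 25257 with the pair. Of 14 tested chemokines 10 rose against zymosan and 1 fell (13.9% and 8.22% over all tested genes). Among the chemokines 9 of the 10 that were higher with LPS than with zymosan were nearer to LPS (385 of 635 among all genes higher with LPS). In the list for nitric oxide, arginine and itaconate 5 of 7 rose against zymosan (13.9% over all tested genes). Irg1, which makes itaconate, had a log2 change of 1.66 ± 0.12 (SE), adjusted p = 7.04e-31, there and of -0.08 against LPS (95% confidence interval -0.29 to 0.13).

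Of the 97 genes higher in the pair than with LPS, 9 were among 20 tested glycolysis and hypoxia genes, 4 among 13 cytokines and growth factors (2 by DESeq2), 3 among 14 chemokines (2 by DESeq2) and 3 among 16 Nrf2 genes. The glycolysis and hypoxia list was higher in the pair than with LPS for all 20 of its tested members, 9 of which were called (2.06% over all tested genes), with a median log2 fold change of 0.86 (0.02 over all tested genes). All 20 stayed above LPS under each scaling tried, and 19 of 20 without replicate 2 of the pair. Against zymosan, 3 rose (Hk3, Pfkp and Pfkfb3), 2 fell (Gpi1 and Ero1l), and the median was -0.26 (-0.07 over all tested genes). Pfkp, at a log2 fold change of 1.00, was at the threshold, and it was 0.93 with DESeq2, 0.94 by relative log expression factors, 0.72 by library size alone, 0.99 with only the libraries compared and 0.77 without pair replicate 2. Of the 14 members higher with zymosan than with LPS, 5 were nearer to zymosan in the pair (Slc2a1, Hk2, Pgk1, Pgam1 and Bnip3), 9 were neither and none was nearer to LPS. Among all 434 genes higher with zymosan these counts were 24, 369 and 41. Promoters of 3 members are shown because they hold the core of the hypoxia response element, through which hypoxia-inducible factors are known to act on glycolytic genes. RefSeq gives Hk2 at chr6:82774405-82774704 on the minus strand, Pgk1 at chrX:106186850-106187149 on the plus strand and Ldha at chr7:46845554-46845853 on the plus strand (GRCm38.p6), the last being 1 of 2 listed starts. Capitals mark the letters ACGTG on either strand, with 2 matches in Hk2, 2 in Pgk1 and 5 in Ldha, where matches on both strands overlap.
Hk2: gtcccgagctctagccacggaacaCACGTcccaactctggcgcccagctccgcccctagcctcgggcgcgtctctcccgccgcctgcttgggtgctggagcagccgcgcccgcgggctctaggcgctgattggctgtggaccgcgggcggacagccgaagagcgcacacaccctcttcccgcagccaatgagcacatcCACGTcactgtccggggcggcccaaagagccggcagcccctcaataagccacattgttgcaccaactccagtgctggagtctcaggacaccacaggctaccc
Pgk1: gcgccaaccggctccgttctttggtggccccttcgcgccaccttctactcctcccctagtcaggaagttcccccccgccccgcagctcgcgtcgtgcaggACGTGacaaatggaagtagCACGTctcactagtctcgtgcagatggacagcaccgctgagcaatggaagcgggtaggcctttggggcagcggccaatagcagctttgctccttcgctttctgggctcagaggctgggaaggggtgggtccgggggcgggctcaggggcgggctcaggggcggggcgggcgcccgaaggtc
Ldha: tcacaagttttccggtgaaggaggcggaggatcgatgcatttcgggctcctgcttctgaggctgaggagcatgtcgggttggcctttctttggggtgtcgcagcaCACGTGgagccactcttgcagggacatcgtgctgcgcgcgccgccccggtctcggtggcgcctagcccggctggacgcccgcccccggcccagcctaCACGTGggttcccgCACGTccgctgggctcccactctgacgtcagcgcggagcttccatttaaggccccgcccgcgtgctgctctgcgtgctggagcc
The letters occur in 12 of the 20 promoters of the list (60.0%), in 27.8% of the 3807 tested genes with a promoter, and in 19.7% of all genes in the table. Among the genes higher with zymosan and nearer to it in the pair, 20 of 24 had a promoter and 10 of these held the letters (50.0%). A match describes the sequence only.

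Hk2, which encodes the inducible hexokinase at the entry of glycolysis, read 74.4, 116 and 139 CPM with LPS, 359, 243 and 279.9 with zymosan and 431, 371 and 422 with the pair. Every pair library was above every zymosan library, and every zymosan library above every LPS library. The log2 fold change was 1.82 ± 0.22 (SE), adjusted p = 2.17e-12, against LPS, and 0.50 ± 0.18 (SE), adjusted p = 0.0289, against zymosan, the latter below the fold threshold. Slc2a1, the glucose transporter GLUT1, read 141, 127 and 157 CPM with LPS, 579.7, 538 and 471 with zymosan and 351, 464 and 555 with the pair. The pair overlapped zymosan and stood apart from LPS, with a log2 change of 1.67 ± 0.25 (SE), adjusted p = 7.90e-09. Ldha, the lactate dehydrogenase subunit that closes the pathway in active glycolysis, read 1012, 1214 and 1360.2 CPM with LPS, 2172, 2220.5 and 2421 with zymosan and 2379, 3018 and 3099 with the pair, and its log2 fold change against LPS was 1.23 ± 0.15 (SE), adjusted p = 3.49e-11. Hilpda, a hypoxia-inducible lipid droplet protein outside the list, read 22.3, 38.8 and 40.3 CPM with LPS, 285, 249.6 and 219 with zymosan and 339, 326 and 341 with the pair. Its log2 fold change against LPS was 3.22 ± 0.49 (SE), adjusted p = 3.38e-11, while that against zymosan was 0.44 (95% confidence interval -0.11 to 1.00). Other genes of the list lay below the zymosan level. Gpi1, the next enzyme after hexokinase, read 81.9, 111 and 116 CPM with LPS, 497, 506 and 639 with zymosan and 229.8, 187 and 162 with the pair. Ero1l, an oxidase of the endoplasmic reticulum, read 74.4, 44.3 and 44.7 CPM with LPS, 442, 442 and 392 with zymosan and 103, 129 and 150.3 with the pair. Both lay between the singles without overlap, and their log2 fold changes against zymosan were -1.52 ± 0.23 (SE), adjusted p = 1.12e-09, for Gpi1, and -1.72 ± 0.26 (SE), adjusted p = 1.56e-09, for Ero1l. Against LPS, Ero1l had an adjusted p of 0.119 without LPS replicate 3, Slc16a3 one of 0.143 without pair replicate 3, and Bnip3 one of 0.352 after thinning. Bnip3 was nearer to zymosan at an adjusted p of 0.0538 without pair replicate 3.

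**Figure D3:**
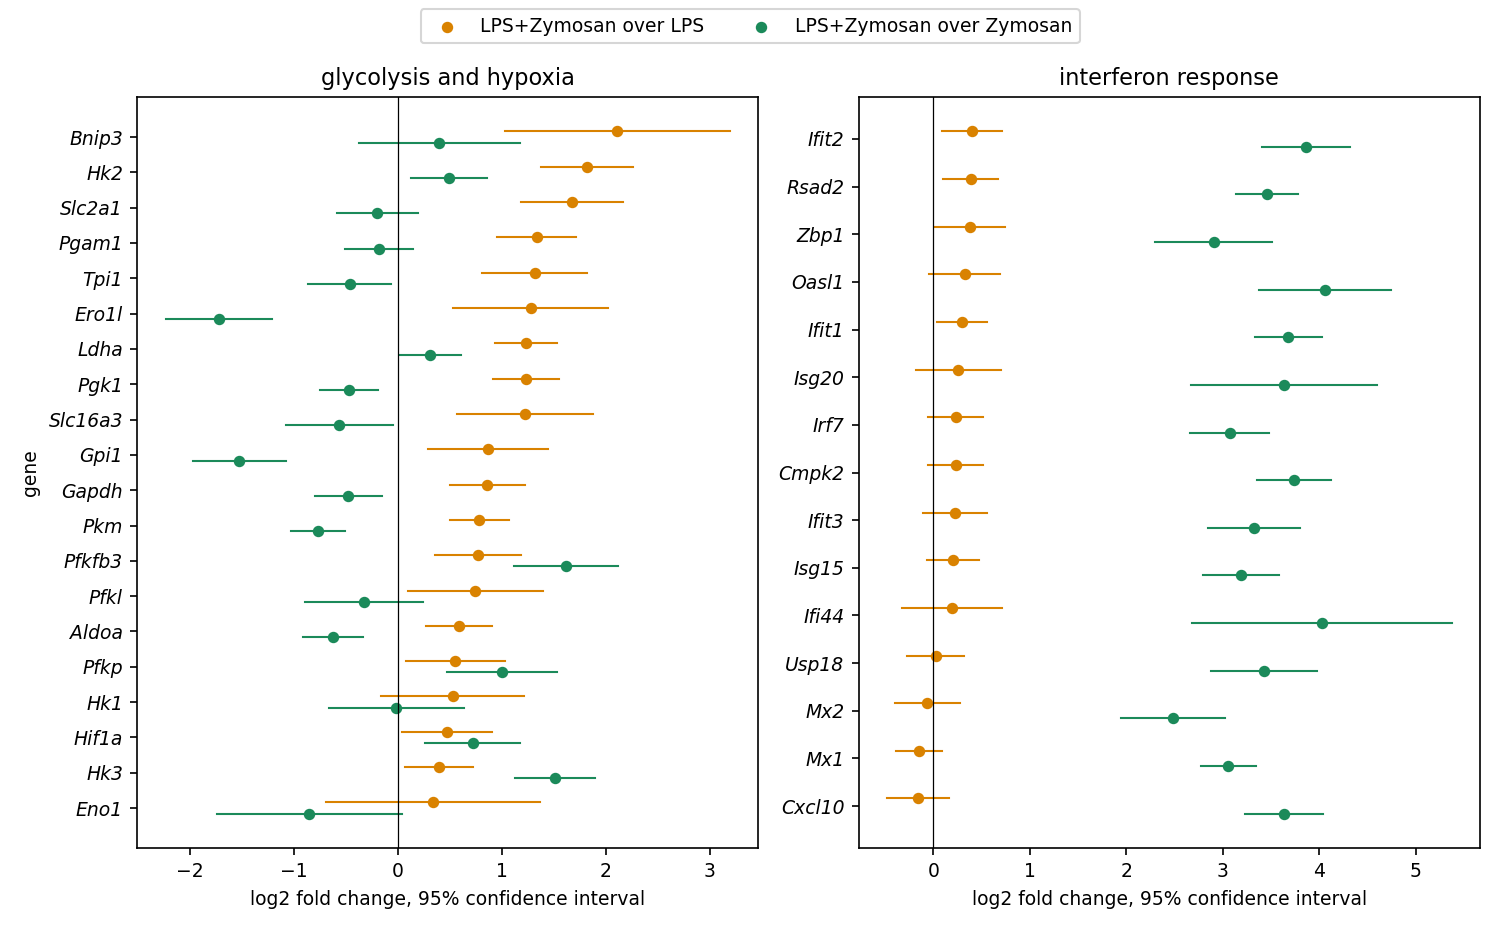
Log2 fold change of the pair over LPS (orange) and over Zymosan (green) for the tested genes of the glycolysis and hypoxia list (left) and the interferon list (right), with lines for the 95% confidence intervals of the edgeR fit. On the left all 20 orange points are above 0, and on the right all 15 green points are above 2 while the orange points lie near 0.

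Besides the 5 glycolysis genes, the 24 genes higher with zymosan and nearer to it in the pair included Spp1, Mif, Hbegf, Ccr1 and Sqstm1. Spp1, which encodes the secreted phosphoprotein osteopontin, read 1452, 1452 and 1588 CPM with LPS, 3101, 2976 and 3214 with zymosan and 2954, 2509 and 3365 with the pair, which overlapped zymosan and not LPS. Mif, the macrophage migration inhibitory factor, read 134, 155 and 148 CPM with LPS, 488, 378 and 489.9 with zymosan and 345, 495 and 497 with the pair (log2 fold change against LPS 1.61 ± 0.23 (SE), adjusted p = 4.75e-09). Hbegf, a heparin-binding ligand of the EGF receptor, had a log2 fold change against LPS of 2.08 ± 0.45 (SE), adjusted p = 4.57e-05, and Ccr1, a receptor for inflammatory chemokines, one of 1.89 ± 0.36 (SE), adjusted p = 6.65e-06. Sqstm1, the autophagy receptor p62, was nearer to zymosan yet below it: it read 514, 493 and 362 CPM with LPS, 1831, 2009 and 1847 with zymosan and 1269.9, 1192 and 1272 with the pair. The largest fitted rises over LPS among genes of at least 50 CPM without overlap were those of Gm7120, Cish, Hilpda, Gem, Tnfrsf26, Gdf15, Gde1, Lpxn, Lhfpl2 and Maff. Gm7120 had 47 counts in the pair and 1 with LPS, a ratio of 41.0 (counting interval 7.00 to 1652), and Cish, an inhibitor of cytokine signalling, had 28 against 2, a ratio of 12.2 (3.08 to 106). The call for Lpxn was lost without pair replicate 2 (log2 fold change 1.42, adjusted p = 0.462), as were those for Gem (2.43, adjusted p = 0.108) and Tnfrsf26 (2.33, adjusted p = 0.101). The call for Maff was lost without pair replicate 1 (1.87, adjusted p = 0.121).

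Genes of the Nrf2 oxidative stress programme did not share 1 pattern. Of the 16 tested, 6 fell in the pair against zymosan (Hmox1, Nqo1, Srxn1, Gclm, Gclc and Txnrd1) and none rose, where 8.22% and 13.9% of all tested genes did. Against LPS 3 rose (Hmox1, Gclm and Sqstm1), where 2.06% of all tested genes did. The median was -0.71 against zymosan (-0.07 over all tested genes) and 0.21 against LPS (0.02). Srxn1, which encodes sulfiredoxin, a repair enzyme of peroxiredoxins, read 263, 237 and 221 CPM in Ctrl, 141, 205 and 125 with LPS, 902, 1062 and 961 with zymosan and 195, 214 and 168 with the pair. The pair and LPS libraries overlapped and lay below every Ctrl library, and the zymosan libraries stood far above the other 3 groups. The log2 fold change of the pair was -2.33 ± 0.20 (SE), adjusted p = 4.58e-24, against zymosan, and 0.31 against LPS (95% confidence interval -0.19 to 0.80). Txnrd1, a thioredoxin reductase, read 558, 499 and 469.8 CPM with LPS, 1914, 2239.7 and 1973 with zymosan and 753, 647 and 769 with the pair, a log2 change of -1.50 ± 0.16 (SE), adjusted p = 3.59e-16, against zymosan. Both were nearer to LPS. Hmox1, the heme oxygenase that yields carbon monoxide and biliverdin, read 432, 316 and 237 CPM with LPS, 1500.0, 1702 and 1768 with zymosan and 862, 647 and 925 with the pair. It lay between the singles without overlap, at a log2 change of 1.34 ± 0.21 (SE), adjusted p = 1.55e-07, against LPS and -1.05 ± 0.17 (SE), adjusted p = 8.47e-08, against zymosan, where the fold fell below the threshold without pair replicate 2 (-0.90). Gclm, the regulatory subunit of the enzyme that limits glutathione synthesis, read 37.2, 105 and 85.0 CPM with LPS, 469, 525 and 527 with zymosan and 167, 147 and 185 with the pair. Its call against LPS had an adjusted p of 0.0343, which became 0.222 without LPS replicate 1. The call of Nqo1 against zymosan was lost without pair replicate 2 (log2 fold change -2.12, adjusted p = 0.0711).

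Among 11 tested genes of the list of other C-type lectins and scavenger receptors, Clec4n and Clec5a fell in the pair against zymosan and none rose, against 8.22% and 13.9% of all tested genes. Clec5a was at a log2 fold change of -1.12 (adjusted p = 0.00966), which without pair replicate 2 was -0.82 (adjusted p = 0.126). Clec4n, which encodes Dectin-2, a receptor for fungal mannans, read 956, 910.5 and 951 CPM in Ctrl, 253, 327 and 291 with LPS, 1408, 1376 and 1428 with zymosan and 471, 469 and 393 with the pair. The pair was above LPS by less than the called fold and far below zymosan, with a log2 change of -1.65 ± 0.15 (SE), adjusted p = 2.74e-21, there. Clec7a, which encodes Dectin-1, read 1122, 910.5 and 893 CPM in Ctrl, 268, 299 and 358 with LPS, 745, 787 and 746 with zymosan and 368, 545 and 272 with the pair, a log2 change of -0.92 ± 0.16 (SE), adjusted p = 7.26e-07, against zymosan, just under the fold threshold. Cd36, a scavenger receptor, fell against zymosan by 2.30-fold (log2 fold change -1.20 ± 0.20 (SE), adjusted p = 1.57e-07). Among the 14 tested genes of the beta-glucan receptor and Card9 list 2 fell against zymosan (Plcg2 and Cd36) and none rose, against 8.22% and 13.9% of all tested genes, and none was called against LPS by edgeR or DESeq2. That call for Plcg2 was lost without pair replicate 1 (adjusted p = 0.0984). At an unadjusted p under 0.05 and the same fold, 1 of the 14 was lower against LPS and none higher. Card9 itself had no count in these 12 libraries. Of 10 tested genes of the TLR4 receptor and its adaptors, Myd88 rose against zymosan (log2 fold change 1.85 ± 0.31 (SE), adjusted p = 1.41e-08) and Irak1 fell (-1.14 ± 0.41 (SE), adjusted p = 0.0198), 1 of 10 in each direction, near the shares over all tested genes. Without zymosan replicate 2 Irak1 was at -0.82 (adjusted p = 0.190). None of the 10 was called against LPS by either tool, and 2 were lower at an unadjusted p under 0.05.

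Marco, a scavenger receptor for bacteria, and Fyb, an adaptor of immune receptor signalling, were the 2 genes higher with LPS for which the pair lay nearer to zymosan. Marco read 1385, 1602 and 1383 CPM with LPS, 663, 608 and 616 with zymosan and 781, 295 and 890.3 with the pair. All pair libraries were below LPS, replicate 2 by far the most, and the log2 fold change of -1.18 ± 0.20 (SE), adjusted p = 2.02e-06, became -0.80 without that library, under the fold threshold. Fyb read 283, 249 and 224 CPM with LPS, 101, 109 and 79.3 with zymosan and 80.4, 107 and 75.2 with the pair, which overlapped zymosan, and its log2 fold change against LPS was -1.48 ± 0.28 (SE), adjusted p = 1.30e-05.

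Besides these groups, the largest fitted falls against LPS, by the same rule, were those of Icosl, Mknk1, Lad1, Chpt1, Foxp4, Fyb, Asap1, Foxn2, Hmgb1 and St3gal3. Lad1, a filament protein of cell anchorage, read 141, 127 and 94.0 CPM with LPS, 18.4, 12.8 and 4.67 with zymosan and 40.2, 40.2 and 23.1 with the pair, between the singles without overlap (log2 fold change against LPS -1.74 ± 0.45 (SE), adjusted p = 0.00221). Mknk1, a kinase of the translation factor eIF4E, read 59.6, 27.7 and 80.5 CPM with LPS, 55.2, 38.4 and 28.0 with zymosan and 11.5, 4.46 and 17.3 with the pair. Its call against LPS was lost without LPS replicate 3 (log2 fold change -1.91, adjusted p = 0.127), and that of Hmgb1, a chromatin protein, without pair replicate 2 (-1.03, adjusted p = 0.218), as was that of Foxp4 (-1.15, adjusted p = 0.356). Calls were also lost for Chpt1 without pair replicate 3 (-1.22, adjusted p = 0.252), for Asap1 (-1.19, adjusted p = 0.169) and Foxn2 (-0.90, adjusted p = 0.258) without LPS replicate 3, and for St3gal3 without LPS replicate 1 (-1.08, adjusted p = 0.0581).

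Against zymosan the largest fitted rises were those of Pou3f1, Serpina3f, Car4, Nos2, I830012O16Rik, Rhoh, Ccl7, Rbl1, Trim30b and Iigp1. With zymosan Pou3f1 had 0 counts, Car4, Rhoh, Rbl1 and Trim30b had 1 each, Ccl7 had 2, and Serpina3f and Nos2 had 3 each. The order of these genes is thus not determined (ratio for Rbl1 26.1, counting interval 4.40 to 1059). The call for Rbl1 was lost after thinning (log2 fold change 2.77, adjusted p = 0.0761). Iigp1, an immunity-related GTPase that interferon is known to induce, read 365, 377 and 447 CPM with LPS, 9.20, 32.0 and 23.3 with zymosan and 442, 674 and 486 with the pair (log2 fold change against zymosan 4.51 ± 0.53 (SE), adjusted p = 3.06e-26). Il15, a cytokine that sustains NK and memory T cells, read 305, 249 and 233 CPM with LPS, 18.4, 25.6 and 18.7 with zymosan and 293, 295 and 301 with the pair, where LPS and the pair overlapped. The largest fitted falls were those of Scd2, Haus8, Lair1, Cd300lb, Sgms1, Slc43a2, Deb1, Cdk18, Glul and Eid3. Slc43a2, a transporter of large neutral amino acids, read 263, 299 and 374 CPM in Ctrl, 52.1, 5.54 and 17.9 with LPS, 248, 256 and 243 with zymosan and 11.5, 22.3 and 28.9 with the pair. Its level with zymosan was near that of Ctrl, while LPS and the pair overlapped far below, at a log2 fold change of the pair over zymosan of -3.52 ± 0.49 (SE), adjusted p = 4.38e-15. Cd300lb, an activating myeloid receptor, read 332, 237 and 298 CPM in Ctrl, 7.44, 5.54 and 35.8 with LPS, 147, 218 and 117 with zymosan and 5.75, 22.3 and 0 with the pair, which again overlapped LPS.

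Of the immediate early genes of the Egr, Nr4a and NFAT list, which calcium and mitogen signalling are known to induce, 6 were tested. Egr1, Egr2 and Fosl2 fell against zymosan (8.22% over all tested genes), while Hbegf and Fosl2 rose against LPS (2.06%). Egr2, a transcription factor of myeloid differentiation, read 0, 11.1 and 22.4 CPM with LPS, 110.4, 134 and 154 with zymosan and 23.0, 17.9 and 34.7 with the pair. The pair libraries overlapped LPS and none reached the zymosan libraries, at a log2 change of -2.43 ± 0.49 (SE), adjusted p = 8.22e-07. Egr3, Nr4a2, Nr4a3 and Fosb had no counts in these libraries, and Nr4a1 had 14 with zymosan, 8 with the pair, 3 with LPS and 3 in Ctrl, too few to be tested. Both Egr1 and Fosl2 were low: the pair had 31.0 ± 18.4 CPM of Egr1 and 77.1 ± 35.7 of Fosl2 (SD, n = 3). Without pair replicate 2 the adjusted p of Egr1 against zymosan was 0.0719 and that of Fosl2 against LPS was 0.231. Against zymosan Fosl2 was at -0.84 without pair replicate 1, under the fold threshold, and after thinning its adjusted p was 0.151 and Egr1 was at 0.0513 (adjusted p = 0.974). The list then had 2 members called higher and 1 lower against zymosan, and its median moved from -0.16 to 0.66.

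The pair lay above both single ligands, by at least a log2 fold change of 1 over each and with the larger of both p-values passing after adjustment, for 18 genes (0.381% of those tested). They were Il33, Ccl7, Nos2, Pou3f1, Furin, Gnb4, Edn1, Ccl4, A630072M18Rik, Tbc1d9, Car2, Il1rn, Mt2, Fabp3, Irf8, Htra4, Ccl2 and Clmp. Among them 5 were called in every one of 16 other settings (7 of processing and 9 that left out 1 library), namely Ccl4, Edn1, Furin, Il1rn and Nos2. Ccl7 was called in 15, Fabp3 in 14, and Irf8 and Mt2 in 13. Gnb4 and Il33 were called in 11, A630072M18Rik, Car2 and Ccl2 in 8, Clmp, Htra4 and Pou3f1 in 7 and Tbc1d9 in 4. Without pair replicate 2 the calls of A630072M18Rik, Fabp3, Gnb4, Htra4, Irf8, Pou3f1 and Tbc1d9 were lost. Without the fold threshold 46 genes were above both.

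Ccl4, which encodes the chemokine MIP-1 beta, read 789.5, 1159.9 and 864 CPM in Ctrl, 4213, 4090.1 and 4291 with LPS, 1675, 1561 and 1432 with zymosan and 11153, 12146 and 11845 with the pair. The 4 groups did not overlap, and the pair was 2.79-fold above LPS and 7.57-fold above zymosan. The log2 fold changes were 1.48 ± 0.15 (SE), adjusted p = 6.39e-15, and 2.92 ± 0.16 (SE), adjusted p = 1.32e-40. Il1rn, the interleukin 1 receptor antagonist that blocks interleukin 1 signalling, read 3201, 3702 and 3844 CPM with LPS, 3258, 2848 and 3294 with zymosan and 7596, 8955 and 7643 with the pair. The singles overlapped and every pair library was above both. Its log2 fold change was 1.17 ± 0.15 (SE), adjusted p = 2.92e-10, against LPS and 1.36 ± 0.15 (SE), adjusted p = 1.20e-14, against zymosan.

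Nos2, the inducible nitric oxide synthase, read 14.9, 72.0 and 98.4 CPM with LPS, 9.20, 6.40 and 4.67 with zymosan and 287, 209.8 and 266 with the pair. The pair exceeded LPS in every library by a log2 change of 1.88 ± 0.35 (SE), adjusted p = 3.24e-06. Zymosan alone gave 3 counts against 143 in the pair, a ratio of 33.6 (counting interval 11.3 to 165). Edn1, which encodes the vasoconstrictor peptide endothelin 1, read 119, 122 and 175 CPM with LPS, 27.6, 44.8 and 70.0 with zymosan and 425, 504 and 341 with the pair. Its log2 fold change was 1.58 ± 0.29 (SE), adjusted p = 4.25e-06, against LPS and 3.03 ± 0.42 (SE), adjusted p = 3.06e-14, against zymosan. Furin, the proprotein convertase that cleaves endothelin, growth factor and receptor precursors, read 55.4, 62.4 and 76.8 CPM in Ctrl, 112, 61.0 and 53.7 with LPS, 46.0, 64.0 and 60.6 with zymosan and 167, 353 and 249 with the pair. The 3 groups other than the pair overlapped one another, and Furin in the pair was 3.64-fold above LPS (log2 fold change 1.86 ± 0.32 (SE), adjusted p = 4.35e-07) and 4.43-fold above zymosan (2.15 ± 0.36 (SE), adjusted p = 2.83e-09).

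**Figure D4:**
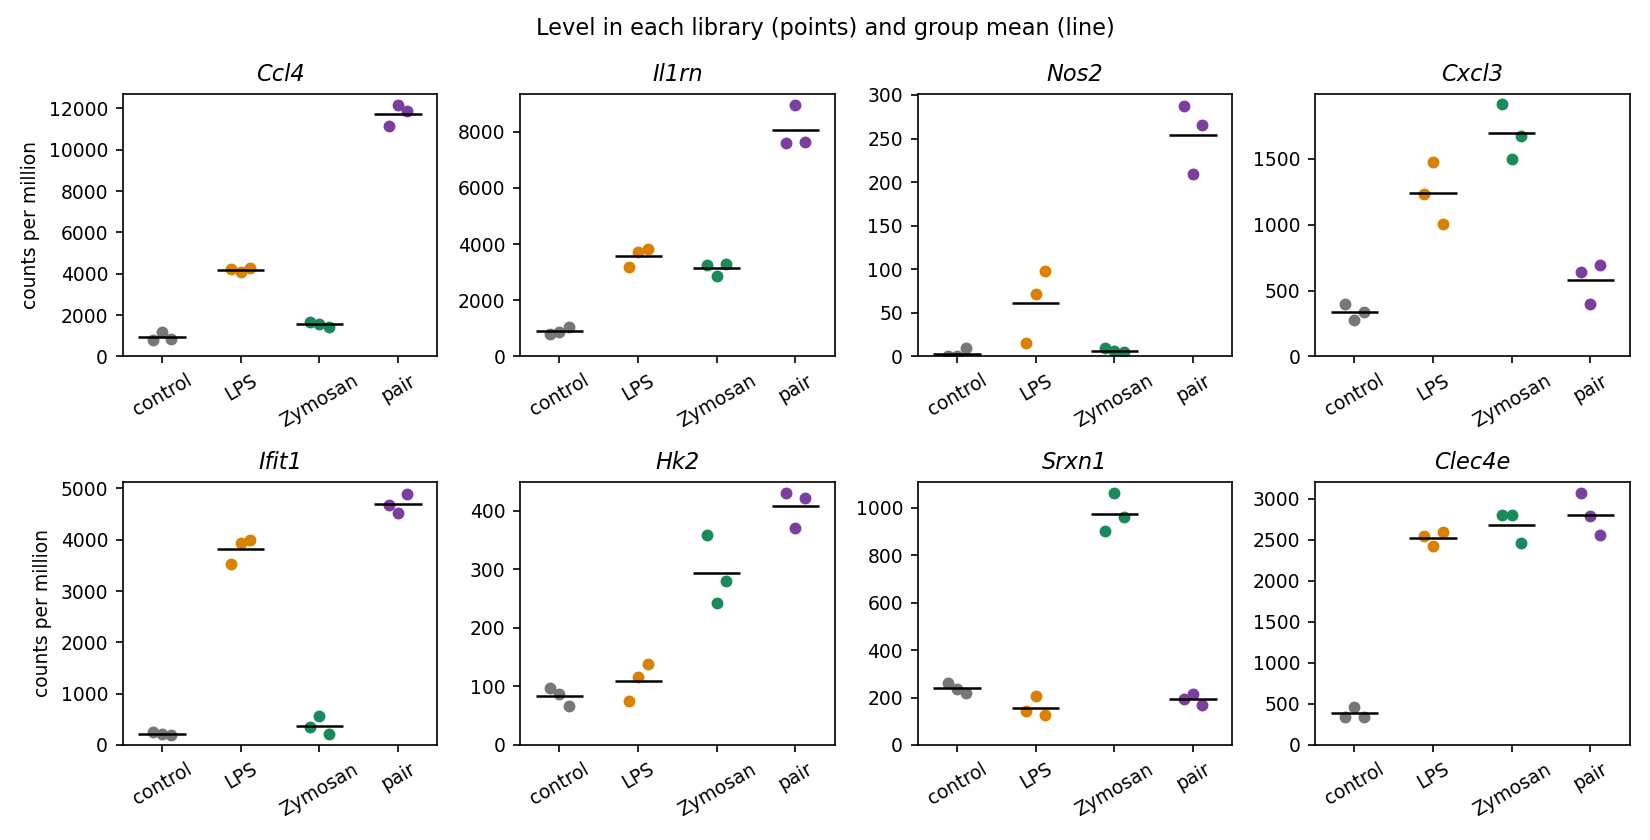
Level in each of the 3 libraries per group (points, CPM on a linear axis from 0) and their mean (lines) for 8 genes in Ctrl, LPS, Zymosan and LPS+Zymosan. Ccl4, Il1rn and Nos2 are highest in the pair, Ifit1 is far above zymosan in both LPS and the pair, Cxcl3 is lower in the pair than with either single ligand, and Srxn1 is highest with Zymosan alone.

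Monocyte chemoattractants were among the others. Ccl7 read 37.2, 27.7 and 40.3 CPM with LPS, 9.20, 6.40 and 0 with zymosan and 161, 165 and 92.5 with the pair, with a log2 change of 1.98 ± 0.48 (SE), adjusted p = 0.00065, against LPS. Ccl2 read 194, 194 and 237 CPM with LPS, 27.6, 38.4 and 46.7 with zymosan and 477, 299 and 520.3 with the pair, and its fold over LPS, at a log2 value of 1.01 ± 0.25 (SE), adjusted p = 0.00252, was so close to the threshold that leaving out pair replicate 3 brought it to 0.85. Il33, the alarmin interleukin 33, had 23 counts in the pair, 1 with zymosan and 0 with LPS. That puts the pair at least 6.68-fold above LPS, taking 3 counts over the group as the floor, and gives a ratio of 16.2 (2.63 to 668) over zymosan. The call of Il33 above both was lost in 5 of the 16 other settings, with an adjusted p of 0.0965 by DESeq2, 0.222 after thinning and 0.0904 without pair replicate 1, and also without zymosan replicate 2 and with only the libraries compared. Irf8, a transcription factor of the dendritic cell lineage, read 238, 227 and 251 CPM with LPS, 119.6, 89.6 and 135 with zymosan and 293, 714 and 486 with the pair. Every pair library was above every single-ligand library, replicate 2 most of all, and the log2 fold change against LPS was 1.08 ± 0.21 (SE), adjusted p = 2.67e-05. The call above both was lost without that library. Mt2, a metallothionein that binds zinc, read 119, 139 and 139 CPM with LPS, 166, 179 and 224 with zymosan and 356, 393 and 486 with the pair. Pou3f1 had 48 counts in the pair and none with zymosan, at least 11.3-fold more.

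The pair lay below both single ligands for 7 genes (0.148%): Fmnl1, Asap1, Fgr, Cxcl3, Arhgef2, Slc16a10 and Myo1f. None was called in all 16 other settings, and without pair replicate 2 none of the 7 was called by edgeR's test (42 genes were below both at an unadjusted p under 0.05 and the same fold, and DESeq2 on all libraries called 3). Cxcl3, a neutrophil chemokine, was the most stable, called in 13. It read 402, 274 and 336 CPM in Ctrl, 1236, 1479.7 and 1002 with LPS, 1914, 1497 and 1670.2 with zymosan and 638, 402 and 694 with the pair. Every single-ligand library was above every Ctrl library, while the lowest pair library was at the level of the highest Ctrl library. The log2 fold change was -1.11 ± 0.23 (SE), adjusted p = 0.000154, against LPS and -1.56 ± 0.22 (SE), adjusted p = 7.58e-10, against zymosan, and without pair replicate 2 that against LPS was -0.89 (adjusted p = 0.0208). Myo1f, a myosin of immune cells, read 706, 811 and 749 CPM in Ctrl, 290.3, 327 and 353 with LPS, 552, 538 and 550.5 with zymosan and 195, 156 and 139 with the pair. The groups did not overlap, with Ctrl highest, then zymosan, then LPS, and the pair lowest. Fmnl1, Asap1, Fgr and Arhgef2, which are known in actin remodelling, adhesion and Src-family signalling, were at 37.9 ± 8.12 CPM (Asap1), 43.1 ± 10.7 (Fgr), 53.9 ± 23.2 (Arhgef2) and 3.42 ± 3.03 (Fmnl1) in the pair (mean and SD, n = 3).

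The neutrophil chemokines of the CXC family took different positions. Cxcl1 read 112, 127 and 129.8 CPM with LPS, 239, 249.6 and 247 with zymosan and 385, 272 and 324 with the pair, above both singles in every library, with a log2 change of 1.38 ± 0.30 (SE), adjusted p = 0.000244, against LPS and 0.40 against zymosan (95% confidence interval -0.12 to 0.91). Cxcl2 read 1258, 1203 and 1056 CPM with LPS, 3856, 3737 and 3196 with zymosan and 2379, 2094 and 2006 with the pair, between the singles without overlap, with a log2 change of 0.89 ± 0.18 (SE), adjusted p = 0.000132, against LPS and -0.73 ± 0.17 (SE), adjusted p = 0.00019, against zymosan. Cxcl3 was the gene below both. Tnf, the tumour necrosis factor gene, read 637, 1135 and 797 CPM in Ctrl, 4437, 4373 and 4506 with LPS, 5494, 5420.0 and 5206 with zymosan and 7217, 7062 and 6897 with the pair. The pair was above both singles in every library, but by log2 differences under the fold threshold, 0.67 ± 0.15 (SE), adjusted p = 0.00118, against LPS and 0.39 ± 0.15 (SE), adjusted p = 0.038, against zymosan.

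Whether the pair equalled the sum of both single-ligand effects on the log2 scale was tested with the interaction contrast, in which Ctrl is the baseline. The interaction was called at an adjusted p under 0.05 without a fold threshold. It was negative, meaning the pair was below the sum, for 123 genes (2.61%) and positive for 46 (0.975%). Scaling by relative log expression factors gave 108 negative and 78 positive, scaling by library size alone 118 and 54, and DESeq2, which also differs in its test, 101 and 85. Of the 123, 75 were at least 1 log2 unit above Ctrl with each single ligand, and of the 46, 9 were at least 1 below Ctrl with each. The inflammatory list held 5 negative interactions among 13 tested genes (Cxcl2, Il1a, Il1b, Nfkbia and Tnf) and the NF-kB list 5 among 18 (Nfkb1, Nfkbie, Sod2, Tnfaip2 and Tnip1). The list for nitric oxide, arginine and itaconate held 4 among 7 and the interferon list 1 among 15 (Mx1). Among 17 tested genes of the lysosome and phagosome list 5 interactions were positive (Atp6v0d2, Atp6v1b2, Ctsb, Ctsl and Lgmn) and none was negative. The fitted interaction was also above 0 for 8 of 8 tested macrophage markers, with a median of 0.68 (-0.03 over all tested genes) and 1 of them called, and their part in the result was not tested.

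Clec4e, which encodes Mincle, a receptor for fungal and mycobacterial glycolipids, had the negative interaction with the smallest p. It read 346, 461 and 346 CPM in Ctrl, 2546, 2427 and 2591 with LPS, 2798, 2803 and 2459 with zymosan and 3068, 2786 and 2561 with the pair. All 3 stimulated groups overlapped at a like level, at log2 fold changes over Ctrl of 2.72 with LPS, 2.81 with zymosan and 2.87 with the pair, and the interaction was -2.65 ± 0.19 (SE), adjusted p = 3.57e-29. Sod2, the mitochondrial superoxide dismutase, read 2293, 2355 and 2519 CPM with LPS, 1417, 1337 and 1362 with zymosan and 2275, 2241 and 2266 with the pair, a level no higher than that of LPS. Among the positive interactions, Fabp5 and Fabp4 encode fatty acid binding proteins and Plin2 coats lipid droplets. Fabp4 read 554, 449 and 557 CPM in Ctrl, 112, 77.6 and 112 with LPS, 617, 653 and 644 with zymosan and 356, 437 and 428 with the pair, so that the pair lay between LPS and the other groups. Fcgr3, an activating receptor for IgG, read 277, 399 and 413 CPM in Ctrl, 171, 166 and 134 with LPS, 175, 141 and 159 with zymosan and 253, 281 and 219.7 with the pair. The singles overlapped, and the pair libraries lay above both.

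The effect of zymosan on top of LPS was also set against its mean effect on top of the other 5 ligands. It was higher for 7 genes (0.148%) and lower for 18 (0.381%). Cxcl3 changed by a log2 value of -1.11 when zymosan joined LPS, by -0.36 when it joined PAM, by -0.42 when it joined CpGB and by 1.28 to 2.21 when it joined HMW, SeV and cGAMP, a difference from the mean of the 5 of -2.09 ± 0.26 (SE), adjusted p = 1.97e-10. Without zymosan, Cxcl3 stood at 10887 CPM with PAM and 4064 with CpGB, and at 115 to 328 with the other 3. Il1a, which encodes interleukin 1 alpha, changed by 0.38 on top of LPS, by 0.85 on PAM, by 0.95 on CpGB and by 1.56 to 2.21 on the other 3 (difference -1.07 ± 0.16 (SE), adjusted p = 1.40e-07). Slc7a11, the cystine transporter, changed by -0.12 on top of LPS, by 0.07 on PAM, by 0.34 on CpGB and by 1.51 to 2.44 on the other 3 (difference -1.32 ± 0.21 (SE), adjusted p = 1.03e-06). Differences from PAM or CpGB alone were not tested, and for Slc7a11 both values were near that on LPS. In the other direction, Irf8 changed by 1.08 on top of LPS and by -0.10 to 0.20 on top of the others (difference 1.07 ± 0.24 (SE), adjusted p = 0.00223), which without pair replicate 2 was 0.69 with an adjusted p of 0.330.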

How the data were processed

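Bulk libraries of stimulated dendritic cells were compared at 6 hours. The authors deposited 1 table of raw UMI counts per gene. Per the labels, RNA was reverse transcribed with template switching, pooled after barcoding and sequenced on a NextSeq550. The submitters' processing notes name BWA 0.7.15 and mm10 without their role. All libraries of the 64 groups were fitted in 1 model with edgeR 4.0.16 in R 4.3.3 (TMM, filterByExpr, quasi-likelihood, 128 residual degrees of freedom), and contrasts were adjusted over 4720 genes by Benjamini-Hochberg. The samples, gene lists and tests were chosen with earlier results of these data known. Named genes were the 10 largest called rises and falls per comparison (at least 50 CPM, no overlap), the 12 largest above or below both, the 8 farthest from the midpoint per side, the 4 interactions per sign of smallest p, and the lists' members. Promoters came from RefSeq (GRCm38.p6), matched by symbol or older symbol for 3807 of 4720 genes, the first listed start of each. On simulated counts for 4720 genes, each log2 change was given to 50 genes drawn from those above a minimum LPS level. At an adjusted p under 0.05 without the fold threshold, changes of 2 and -2 against LPS were found in 100% and 68%. Changes of 1 and -1 were found in 52% and 26%. With the fold threshold used for the calls these shares can only be equal or lower. Alternatives were DESeq2 1.42.0, other scaling factors, no low-count filter, thinning to 61823 UMIs, a replicate block, only the libraries compared, no fold threshold, and leaving out each library. Replicates differed by more than sampling noise in every pair and were counted separately. The 95% intervals of ratios cover counting error only.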

Additional observations from a re-analysis of the deposited data

Results flagged for a closer look

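For the following genes the effect of zymosan differed with the ligand already present, by the test of the difference itself. Relative to the sum of both single effects, the pair was higher for Fabp5 (0.98 on the log2 scale), Fcgr3 (1.93), Plin2 (1.25) and Fabp4 (1.73), and lower for Clec4e (-2.65), Sod2 (-1.72), Cxcl3 (-3.44) and H2-M2 (-2.66). H2-M2, a class Ib histocompatibility gene, read 166, 149.7 and 134 CPM in Ctrl, 930.5, 1164 and 1043 with LPS, 690.2, 479.9 and 616 with zymosan and 729.8, 616 and 630.1 with the pair.

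Against its mean effect on top of the other 5 ligands, zymosan on top of LPS gave a higher change for Tnip3 (1.12), Irf8 (1.07), Lpxn (3.01) and Fcgr4 (1.12), each of which lost its call without pair replicate 2. Adjusted p-values were then 0.0672 for Tnip3, 0.330 for Irf8, 0.503 for Lpxn and 0.247 for Fcgr4. The change was lower for Cxcl3 (-2.09), Cav1 (-1.55), Il1a (-1.07) and Slc7a11 (-1.32). Cav1, which encodes caveolin 1, changed by -0.68 when zymosan joined LPS, by -0.23 when it joined PAM, by 0.01 when it joined CpGB and by 1.44 to 1.71 when it joined the other 3.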

How the results depend on the processing

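Counts of called genes were the values that moved most; among called results of named genes the direction was kept, apart from Egr1 against zymosan, which turned from -1.49 to 0.0513 (adjusted p = 0.974) after thinning. Thinned to equal totals, the counts were 40 higher and 11 lower against LPS, 428 and 191 against zymosan, 241 lower with LPS than with zymosan, 9 above both, 0 below both (edgeR; 61 at an unadjusted p under 0.05 and the same fold, 3 by DESeq2 on the full counts), 212 nearer to LPS, 8 nearer to zymosan, 79 negative and 19 positive interactions, and 0 higher (edgeR; 105 at an unadjusted p under 0.05 and the same fold, 7 by DESeq2 on the full counts) and 4 lower zymosan effects than on the other 5 ligands. DESeq2 gave 58 higher against LPS, 9 above both, 3 below both and 85 positive interactions. Without the low-count filter 20 were lower against LPS, 2 below both and 13 interactions positive, against 126 negative. Library size alone gave 49 lower against LPS, 715 lower against zymosan and 8 above both. With no fold threshold 181 were higher and 70 lower against LPS, and 46 above both. Positive interactions were 78 by relative log expression factors and 85 with only the libraries compared.

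Leaving out each library in turn, the ranges were 63 to 95 higher (63 without LPS replicate 3, 65 without pair replicate 2) and 18 to 32 lower against LPS (18 without LPS replicate 3, 20 and 21 without pair replicates 2 and 3), 0 to 5 below both, 27 to 52 positive interactions (27 without pair replicate 2, 28, 30 and 29 without Ctrl replicates 1, 2 and 3), 2 to 13 higher zymosan effects (2 without pair replicate 2, 13 without pair replicate 1, 3 without LPS replicate 3) and 10 to 19 lower (10 without pair replicate 2, 11 without LPS replicate 3). Genes below both were 4, 0 and 1 without pair replicates 1, 2 and 3, 1 without LPS replicate 2 or 3 and 4 without zymosan replicate 2. The other ranges were 576 to 652 higher and 297 to 354 lower against zymosan, 12 to 17 above both, 324 to 421 nearer to LPS, 20 to 28 nearer to zymosan and 85 to 120 negative interactions. The cause of these moves was not tested.

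Replicate numbers are shared between groups. Same-numbered libraries correlated by -0.0202 to 0.106 in their deviations over 1595 genes, and differently numbered ones by -0.0930 to 0.0449. Counting noise at these depths keeps both low, so whether the numbers pair the libraries was not settled. With the replicate number as a block the counts were 101 and 32 against LPS, 661 and 391 against zymosan, and 18 and 7 above and below both, and all 211 calls of named genes were kept. Of those calls DESeq2 kept 180 of 196, thinning 135 of 211, and the least favourable left-out library 153 of 211. Genes under about 50 CPM have only a few counts per library at these depths.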
